A study of Homo sapiens with 32 samples.

Results

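Alyref and Chtop, both subunits of the TREX complex, were compared gene by gene from the RNA bases to which each was crosslinked in cells. Of the 12 iCLIP libraries in the series, 6 entered the comparison, 3 of Alyref-FLAG and 3 of Chtop-FLAG, which were sequenced in 16 of the 32 lane runs. The members were chosen by label alone, and tags of the mitochondrial chromosome were left out. Both groups were labelled as FlpIn HEK293T cells, an established human embryonic kidney line, although the growth protocol calls the tagged lines FlpIn-293. Expression of either protein was induced with tetracycline at 10 ng/mL for 48 h, and the same anti-FLAG antibody was used for both. The 3 Control libraries came from cells with the FLAG construct alone, for which the induction was not given separately. Each tagged protein was represented by a single stable line, expressing it at near endogenous levels per the study's methods. The 2 groups are therefore also 2 cell lines, and a difference in the amount of an RNA between the lines cannot be told apart from a difference in binding. Nothing in the labels says that the 3 libraries of a group came from separate cultures, so p-values measure the spread between these libraries.

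TREX couples the making and processing of mRNA to its export from the nucleus. Alyref is an RNA-binding adaptor that contacts the cap-binding complex, the exon junction complex and the RNA helicase DDX39B, and hands mRNA to the export receptor Nxf1. Chtop is an arginine- and glycine-rich adaptor of the same complex that also binds Nxf1 and RNA. The exon junction complex is left by splicing a short distance upstream of each exon-exon junction, and the number and spacing of junctions differ widely between mRNAs.

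A tag is 1 cDNA, counted once by its random barcode, assigned to the crosslinked base. Outside the mitochondrial chromosome, Alyref replicates 1, 2 and 3 held 81133, 630540 and 602486 tags and Chtop replicates 46955, 537921 and 429324, so replicate 1 was the shallow library of each group. The Control libraries held 6998, 46384 and 36804. Tags in exons made up 53.7% to 64.1% of single-gene tags in Alyref and 63.6% to 79.4% in Chtop. Logarithmic tag levels per gene correlated across genes at 0.916 between Alyref 2 and 3 and at 0.910 between Chtop 2 and 3, against 0.6805 to 0.760 between the deep libraries of different groups. Replicate 1 correlated with the others of its group at 0.684 and 0.688 in Alyref and 0.594 and 0.575 in Chtop, within or below that range between groups. The kidney-line markers VIM, KRT8, KRT18, NEFL and PAX2 all had tags in both groups, whereas NEFM had 1 tag in Alyref and 0 in Chtop. CD3E and INS, markers of T cells and pancreatic islets, had none, PTPRC and ALB had at most 1 tag per group, HBB had 5 and 7, and COL1A1 had 27 and 12.

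The first question was how many genes differed in tags between the 2 subunits. Levels are CPM, exonic tags scaled to library size with TMM factors, and log2 differences are Chtop minus Alyref with their standard errors from edgeR's quasi-likelihood test, which also gave every adjusted p (Benjamini-Hochberg, threshold 0.05). Of 6824 genes tested, 862 were higher in Chtop (12.6% of all tested) and 986 were higher in Alyref (14.4%). In 1280 of the called genes the 3 Alyref and 3 Chtop levels did not overlap. Calling itself favours such genes, and their share among all tested genes is not given here, so this count adds no separate support. DESeq2 on the same counts called 114 and 171, and without both replicate 1 libraries edgeR called 1141 and 1208. The counts were 371 and 583 without Alyref replicate 2, 409 and 525 without Alyref replicate 3 and 412 and 663 without Chtop replicate 3. Called genes differed in their architecture. Those higher in Chtop had a median of 7 exons, a 3′ UTR of 2663 nt and middle exons of 200 nt on average, whereas those higher in Alyref had 15 exons, a 3′ UTR of 620.5 nt and middle exons of 115 nt. All tested protein-coding genes had 12 exons, 1766.5 nt and 135 nt.

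**Figure D1:**
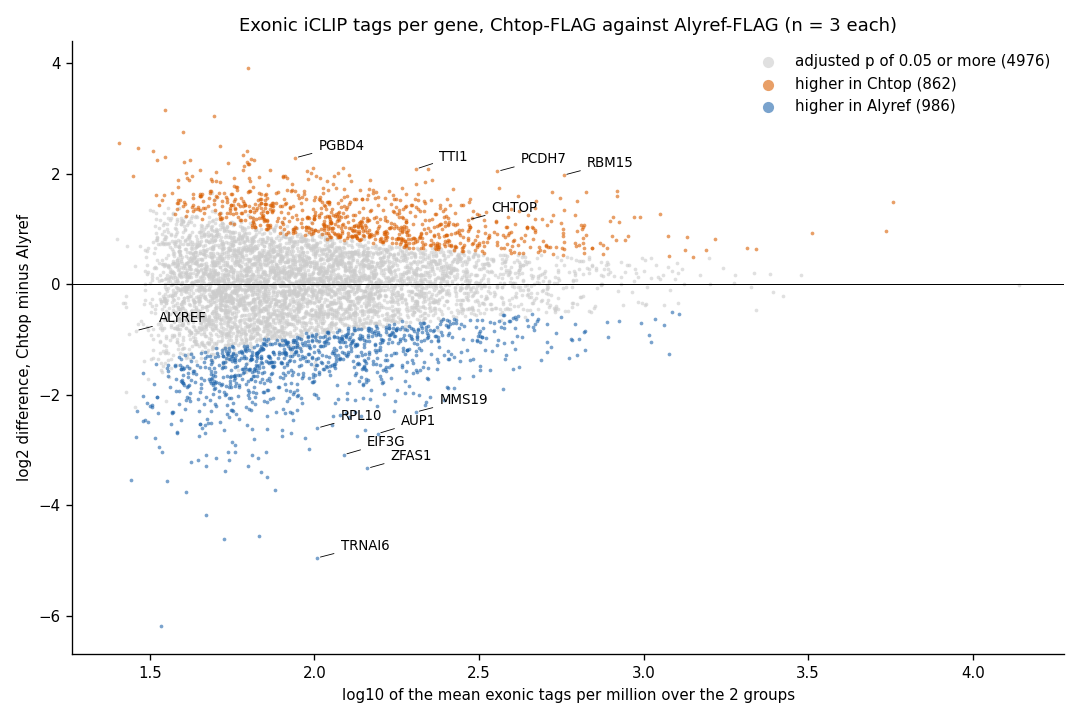
Each point is 1 of 6824 genes, with the log10 of the mean exonic CPM of the 2 groups on the x axis and the log2 difference, Chtop minus Alyref, on the y axis. Orange points (862) were higher in Chtop and blue points (986) higher in Alyref, and the named genes are described in the text.

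Of the 12 genes with the largest difference in favour of Chtop, 8 had 1 to 3 exons and the other 4 had 7 to 12. PCDH7, a protocadherin of cell adhesion with 3 exons (ENSG00000169851, chr4:30721991-31148427), had 116, 170 and 146 CPM in Alyref and 381, 612 and 733 CPM in Chtop. The lowest Chtop level was above the highest Alyref level, and the log2 difference was 2.04 ± 0.23 (adjusted p = 3.2e-08). Over the whole gene, where introns held 367 Alyref and 175 Chtop tags, PCDH7 did not pass the test (0.68, adjusted p = 0.0607). RBM15, a subunit of the m6A methylase complex (ENSG00000162775, chr1:110881128-110889303), also with 3 exons, had 291, 240 and 244 CPM in Alyref and 572, 981 and 1099 CPM in Chtop. Its difference was 1.97 ± 0.22 (adjusted p = 2.58e-08), and the Control held 2 tags.

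GEMIN4, a member of the SMN complex that assembles snRNPs (ENSG00000179409, chr17:647661-657239, 2 exons), had 58.2, 104 and 72.8 CPM in Alyref. In Chtop it had 334, 352 and 404 CPM, a log2 difference of 2.09 ± 0.27 (adjusted p = 3.01e-07). TTI1, a partner of the PI3K-related kinases (ENSG00000101407, chr20:36611409-36661863), has 8 exons. One of them is 2343 nt long, and the gene rose from 87.4, 86.9 and 85.6 CPM in Alyref to 191, 377 and 392 CPM in Chtop (log2 difference 2.08 ± 0.27, adjusted p = 3.35e-07). The other 8 genes of this group were PGBD4, SMCR8, MGAT1, TMEM185B, NR3C2, KLHL9, SKIL and TGFBRAP1, with log2 differences from 1.88 to 2.29. PGBD4, TMEM185B and KLHL9 have 1 exon, SMCR8 and MGAT1 have 2, and NR3C2 (9 exons), SKIL (7 exons) and TGFBRAP1 (12 exons) hold middle exons of up to 1759, 1731 and 705 nt. With DESeq2 MGAT1 no longer passed the threshold.

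The 12 genes furthest towards Alyref had 8 to 31 exons. EIF3G, a subunit of the translation initiation factor eIF3 (ENSG00000130811, chr19:10225690-10230594), spreads a short mRNA over 11 exons and ends in a 3′ UTR of 103 nt. It had 262, 174 and 210 CPM in Alyref and 47.7, 22.0 and 21.1 CPM in Chtop, a log2 difference of -3.09 ± 0.40 (adjusted p = 3.35e-07). AUP1, a lipid droplet protein of the degradation pathway of the endoplasmic reticulum (ENSG00000115307, chr2:74753772-74756887, 12 exons), had 349, 212 and 214 CPM against 95.3, 33.0 and 29.5 CPM. The difference was -2.71 ± 0.37 (adjusted p = 6.49e-07), with 0 tags in the Control. In both genes the lowest Alyref level was above the highest Chtop level.

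MMS19, which delivers iron-sulfur clusters (ENSG00000155229, chr10:99218081-99258551), has 31 exons with a longest middle exon of 187 nt. Its levels were 437, 282 and 291 CPM in Alyref and 95.3, 69.6 and 46.3 CPM in Chtop (log2 difference -2.31 ± 0.31, adjusted p = 4.49e-07). The remaining genes were the ribosomal protein gene RPL10, the replication factor CDC45, the ribosome assembly factors NOL10 and PPAN, the importin IPO4, the membrane traffic protein SCFD1, the arginine methylase PRMT1, the glutaredoxin GLRX3 and the glutaminyl-tRNA synthetase QARS1. Their log2 differences ran from -2.60 to -2.32. Except for RPL10, whose transcript model holds an exon of 1250 nt, the longest middle exon of each of the 12 was 248 nt or less. The 12 genes on the Alyref side held 0 to 5 Control tags each and those on the Chtop side 0 to 3.

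**Figure D2:**
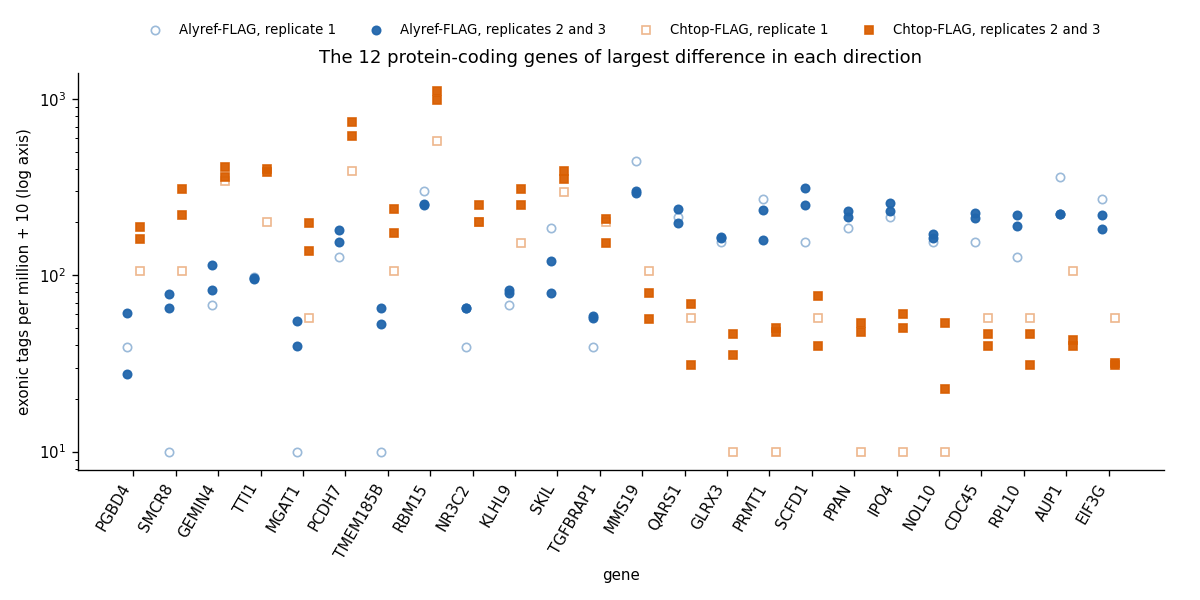
Exonic CPM plus 10 (log axis) of the 12 protein-coding genes with the largest difference in each direction, 1 point per library and replicate 1 drawn open. In each gene the 3 Chtop points lie all above or all below the 3 Alyref points, as the choice of genes required.

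Windows of 21 bases around the most crosslinked exonic base show how thinly tags were spread even in these genes (GRCh37, transcript strand, 5′ to 3′, the crosslinked base in capitals). They belong to 3 genes higher in Alyref and 2 higher in Chtop from those named above.
RPL10 (chrX:153626707-153626727, plus strand): cggaggagcgCctctttccct
EIF3G (chr19:10230365-10230385, minus strand): tttccgcagtTcgaagcccag
CDC45 (chr22:19468538-19468558, plus strand): tgaaactgcaTttcttgagca
SMCR8 (chr17:18219071-18219091, plus strand): tcctctcaatGttttcttcat
GEMIN4 (chr17:648477-648497, minus strand): attggcttccTctggaaggct
In RPL10 the marked base lies 1 base upstream of the start of the canonical transcript, in an exon of another isoform. By the paper's rule a tag without a deletion is placed at the base before its read, here a read beginning at that start. Whether this base itself was crosslinked was not tested. The marked base had 4 Alyref tags, the window had 13, and Chtop had 0 in the window. In EIF3G the marked base is base 2 of a 47-nt coding exon, so that the bases before the exon are intronic, and it had 3 Alyref tags. In CDC45 it is base 73 of a 93-nt coding exon, also with 3 Alyref tags. SMCR8 and GEMIN4, both higher in Chtop, had at most 2 Chtop tags at any base, in exons of 2857 and 3612 nt. The marked base of SMCR8 lies in the 5′ UTR and that of GEMIN4 in the CDS. Over all exonic bases of each gene, 1 other base of SMCR8 and 6 other bases of GEMIN4 had as many tags.

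The base at the tag was compared in the CDS and the 3′ UTR. In the CDS, uracil was the crosslinked base in 48.2%, 47.2% and 46.7% of Alyref tags and in 45.9%, 49.5% and 50.8% of Chtop tags, ranges that overlap, against 36.3%, 39.6% and 39.7% in the Control. Over the 21-base window, each of the 4 bases made up between 23.5% and 26.6% in all 6 libraries. In 3′ UTRs uracil took 60.01% to 60.8% of the crosslinked bases in Alyref and 59.2% to 62.9% in Chtop. Guanine was the crosslinked base in 19.1%, 17.9% and 18.3% of CDS tags in Alyref and 17.3%, 15.4% and 15.9% in Chtop, and in 13.4%, 12.7% and 13.0% against 11.8%, 10.5% and 11.1% of 3′ UTR tags, with no overlap in either region. The Control had 17.2% to 20.1% and 10.9% to 14.9%. These shares were not tested.

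The second question was whether the number of exons goes with the difference. Among tested protein-coding genes the median log2 difference fell from 1.04 in 69 genes of 1 exon and 1.05 in 134 genes of 2 exons to 0.81 at 3 exons, 0.36 at 4 to 6 exons and 0.09 at 7 to 10 exons. It was -0.11 at 11 to 15 exons, -0.21 at 16 to 20 and -0.18 in 1431 genes of more than 20. Of 396 genes with 1 to 3 exons, 186 were higher in Chtop and 3 in Alyref. The Chtop share was 46.4%, 53.7% and 42.5% at 1, 2 and 3 exons, against 12.6% of all tested genes. Of the 1431 genes of more than 20 exons, 91 were higher in Chtop (6.36%) and 246 in Alyref (17.2%). That Alyref share is near the 14.4% of all tested genes, and it was 17.1% at 11 to 15 exons and 17.6% at 16 to 20. DESeq2 gave 31 and 0 for genes of 1 to 3 exons and 16 and 48 for genes of more than 20. Spearman's rho between exon number and difference was -0.29 over 6534 genes, given as a description since genes share the same 6 libraries and their exon number, length and depth are related.

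Library by library, genes of 1 to 3 exons took 4.34%, 4.03% and 4.20% of the exonic tags of protein-coding genes in Alyref and 6.94%, 7.06% and 7.97% in Chtop. The groups did not overlap, with means of 4.19% ± 0.156 (SD, n = 3) and 7.33% ± 0.565 (SD, n = 3), and the Control lay between and partly within the Chtop range at 4.64%, 5.23% and 7.73%. Genes of 15 or more exons took 52.0% ± 0.716 in Alyref and 47.9% ± 0.972 in Chtop (SD, n = 3 each). The exact permutation test of 3 libraries against 3 (two-sided) gave p = 0.1 for both, the smallest value this design allows, and the same after adjustment over the 9 measures of this kind. The widest 95% Wilson half-interval of any of the shares in these 6 libraries was 1.03 percentage points, counting error only.

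The difference went more closely with how densely junctions are spaced than with their number. Junctions per kilobase of spliced transcript, a measure chosen after the values were seen, had a rho of -0.59 with the gene difference. In 683 genes with 6 or more junctions per kb the median log2 difference was -1.01, with 390 genes higher in Alyref and 1 in Chtop. In 391 genes with under 0.5 per kb it was 0.93, with 4 higher in Alyref and 190 in Chtop. Between these classes the median moved in one direction, through 0.57, 0.34, 0.19, 0.02 and -0.34. When exon number, mean middle exon length, CDS length, both UTR lengths and GC content were put in a single linear description of 6326 genes, they accounted for 44.97% of the variance of the difference. The coefficient per SD was -0.55 for exon number and 0.52 for CDS length, against -0.24 and 0.13 for each alone, and 0.23 for 3′ UTR length against 0.31 alone. These features alone were fitted on 6533 or 6534 genes, because the joint description leaves out genes without a middle exon. Mean middle exon length, the feature with the most variance alone (18.9%), went from 0.36 alone to 0.06. Exon number and CDS length are themselves related across the 6326 genes (rho 0.76). Mean middle exon length in turn depends on both. The joint coefficients therefore do not separate these features, and the small one for middle exon length does not show that exon length matters little.

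**Figure D3:**
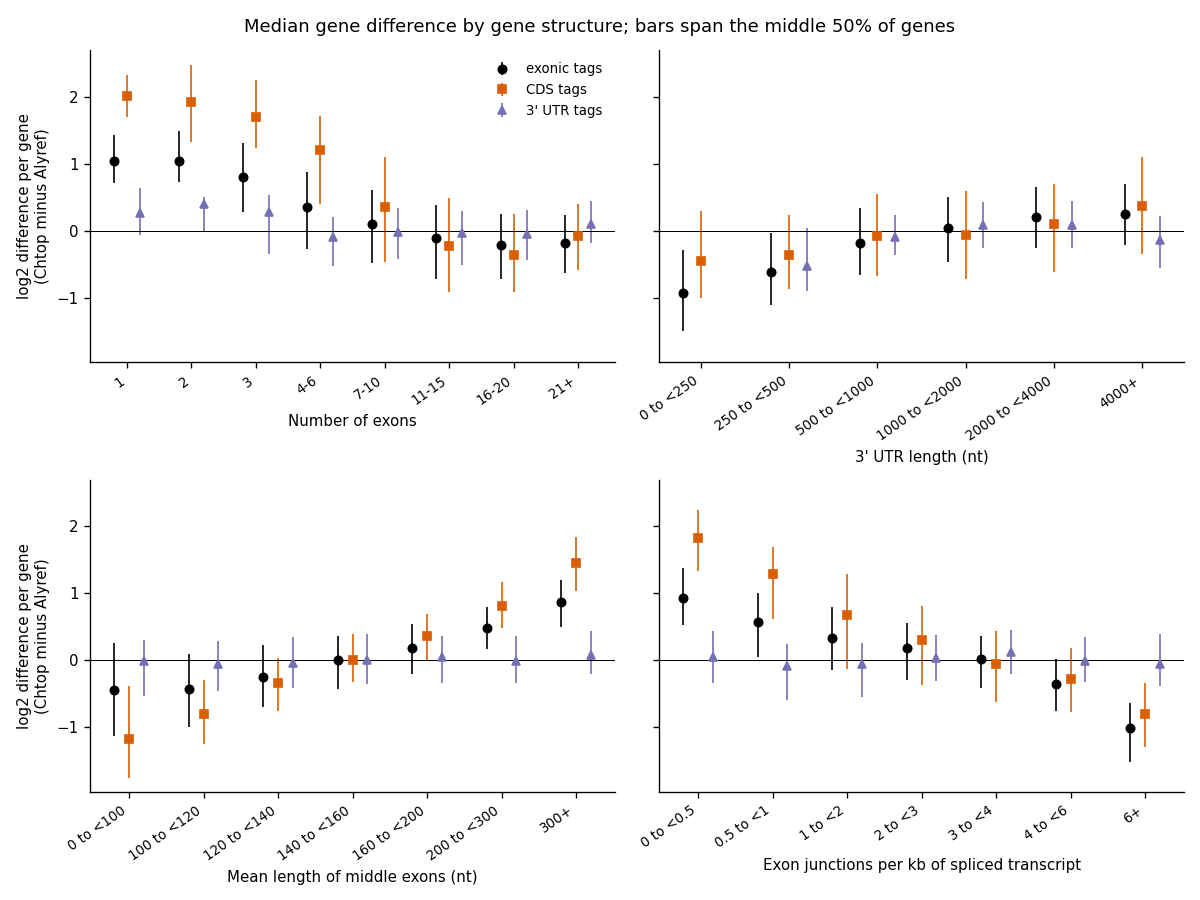
Median log2 difference, Chtop minus Alyref (y axis), of protein-coding genes in classes of exon number, 3′ UTR length, mean middle exon length and junctions per kb, for exonic tags (circles), CDS tags (squares) and 3′ UTR tags (triangles), with bars over the middle 50% of genes in classes of 15 or more. CDS tags span from 2.02 at 1 exon to -0.36 at 16 to 20 exons, while 3′ UTR tags stay between -0.09 and 0.40 by exon number.

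The third question was the length of middle exons, those that are neither first nor last. The mean length of a gene's middle exons had a rho of 0.44 with the exonic difference (6331 genes) and of 0.66 with the difference in CDS tags (3429 genes). Where exons of all isoforms were merged into one model, the rho with the exonic difference was 0.09. In CDS tags the median log2 difference rose from -1.17 in 287 genes whose middle exons average under 100 nt to 1.45 in 251 genes averaging 300 nt or more. Of the 287, 164 were higher in Alyref and 34 in Chtop, and of the 251, 2 and 209. Over all 3484 genes tested in the CDS, 21% were higher in Chtop (731) and 17.5% in Alyref (608). Without Alyref replicate 2 the Chtop count was 454, and without Chtop replicates 2 and 3 in turn the Alyref count was 362 and 327.

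Exons of one gene were then compared with each other, so that the level of the gene drops out. Within each gene, the tags expected in an exon were its share of the gene's middle-exon length. In exons under 100 nt the log2 ratio of observed to expected tags was 0.23, 0.23 and 0.24 in Alyref and -0.12, -0.31 and -0.35 in Chtop. In exons of 400 nt or more it was -0.23, -0.27 and -0.24 in Alyref and 0.27, 0.30 and 0.32 in Chtop. Thus the groups took opposite signs in both classes, with differences of -0.50 and 0.54 (exact permutation p = 0.1 for each, the smallest possible). The Control gave 0.17, 0.19 and 0.11 for the short exons and -0.21, -0.15 and 0.06 for the long ones. The lines of the 2 subunits crossed between 150 and 200 nt, where the means were -0.06 in both.

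The share of all middle-exon tags shows the size of this difference. Exons under 100 nt held 21.2%, 20.9% and 21.1% of these tags in Alyref and 12.7%, 10.0% and 9.72% in Chtop. Exons of 400 nt or more held 10.4% ± 0.132 in Alyref and 26.8% ± 2.67 in Chtop (SD, n = 3 each), with the Control at 14.4% ± 4.44. Neither measure overlapped between the groups.

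**Figure D4:**
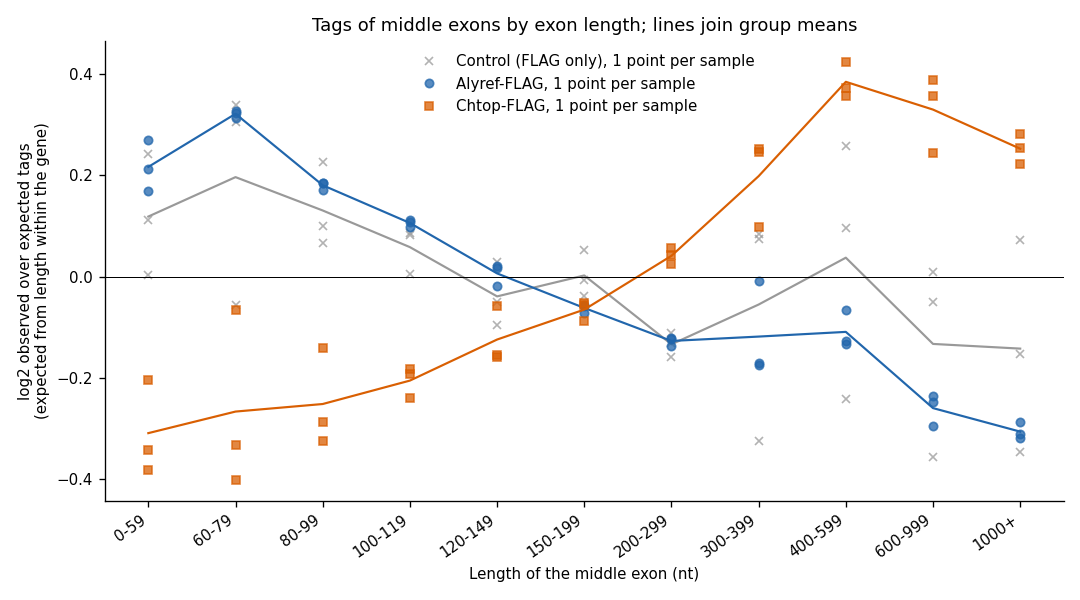
log2 of observed over expected tags (y axis) in middle exons by length in nt (x axis), 1 point per library, with lines through the means of Alyref (blue), Chtop (orange) and the FLAG-only Control (grey). Alyref falls from 0.32 at 60 to 79 nt to -0.31 at 1000 nt or more, while Chtop rises from -0.31 below 60 nt to 0.38 at 400 to 599 nt.

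Position within long middle exons was looked at after these values were seen, and is given without a test. In the 24 to 75 nt before the 3′ end of exons of 400 nt or more, a zone holding 5.11% of their bases, Alyref had 5.66%, 6.85% and 6.68% of its tags. Chtop had 3.35%, 3.36% and 3.39% there, below the share of bases in every library. The Control had 9.49%, 4.34% and 7.46%, but of only 137, 369 and 201 tags in these exons. The same distance from the 5′ end, also 5.11% of the bases, had 6.64%, 6.24% and 6.15% of the Alyref tags and 4.70%, 4.87% and 4.63% of the Chtop tags, so that the shares did not overlap at either end. The Control had 3.65%, 7.05% and 4.48% there. Beyond 150 nt from the 3′ end Chtop had 89.3% ± 0.385 of its tags and Alyref 83.6% ± 0.957 (SD, n = 3 each), around the 85.0% of the bases that lie there.

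Single middle exons with enough tags numbered 816, of which 49 were higher in Chtop (6%) and 137 in Alyref (16.8%). They were normalised over the tested exons, whose median length of 743.5 nt is well above that of all annotated middle exons. The 49 exons higher in Chtop were 572 to 21693 nt long and the 137 higher in Alyref 66 to 997 nt, with medians of 1691 and 152 nt. Of the 265 tested exons under 300 nt, 125 were higher in Alyref and 0 in Chtop. An exon could pass the filter on low counts by its tags in 1 group alone. Which exons were tested therefore depends partly on the group where they are high, and these counts add no separate support for a relation with exon length. Leaving out 1 library moved the Chtop count to 8 (Alyref replicate 3), 11 (Alyref replicate 2), 29 (Chtop replicate 3) or 197 (Chtop replicate 1) and the Alyref count to 62 or 86 (Alyref replicates 2 and 3). DESeq2 was not run on single exons.

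The exon of lowest p towards Chtop was exon 3 of 27 of MAP3K4, a kinase of stress signalling (1364 nt, chr6:161469648-161471011). It had 0, 4 and 5 tags in Alyref and 1, 35 and 40 in Chtop (log2 difference 2.29 ± 0.49, adjusted p = 7.62e-05). The long exon of TTI1, exon 2 of 8, had 2, 20 and 13 tags in Alyref and 3, 85 and 76 in Chtop, which is 164 of the 200 exonic Chtop tags of that gene. Exon 8 of ALMS1, a centrosome protein, is 6105 nt long and had 96 Alyref and 340 Chtop tags. The exons of ZNF800 (1693 nt) and N4BP1 (1691 nt) had 16 and 5 Alyref tags against 86 and 40 Chtop tags.

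Towards Alyref, the 5 exons of lowest p were all the second exon of their transcript. Exon 2 of SNRNP70, which encodes a protein of the U1 snRNP, is 157 nt long (chr19:49589662-49589818) and had 7, 27 and 22 tags in Alyref against 0, 5 and 0 in Chtop. Its log2 difference was -4.12 ± 0.52 (adjusted p = 1.75e-12). Exon 2 of the splicing factor gene SF3A2 had 45 Alyref and 4 Chtop tags, that of HNRNPH1 54 and 7, that of the creatine kinase gene CKB 58 and 8, and that of the glycolytic enzyme gene ENO1 43 and 4. Each of these exons had 0 or 1 tag in the Control. Among tested exons under 300 nt, 27 of 38 at exon 2, 22 of 28 at exon 3 and 28 of 103 exons numbered 11 or later were higher in Alyref. These exons too could pass the filter by their Alyref tags alone, so the counts describe the tested exons only. The median log2 differences were -1.64, -1.65 and -0.66.

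The fourth question was the 3′ UTR. Genes with longer 3′ UTRs tended to Chtop, with a rho of 0.34 for exonic tags. The median log2 difference was -0.93 in 480 genes with under 250 nt of 3′ UTR, where 227 were higher in Alyref and 20 in Chtop, and 0.25 in 1245 genes with 4 kb or more, where 68 and 242 were. Genes with a 3′ UTR of 2 kb or more held 42.5% ± 0.736 of the exonic tags in Alyref and 49.1% ± 1.20 in Chtop (SD, n = 3 each). The Control had 44.3% ± 1.69, and the exact permutation p was 0.1, the smallest possible. For tags in the CDS alone, which do not lie in the 3′ UTR, the same genes held 36.9% ± 0.799 in Alyref and 40.5% ± 0.844 in Chtop, and the rho was 0.20. For tags within the 3′ UTR the sign turned, with a rho of -0.13. Of 627 genes with 4 kb or more, 34 were higher in Alyref and 4 in Chtop (median -0.13). These tags were scaled to the 3′ UTR total of each library, so a shift shared by all 3′ UTRs drops out. The calls therefore compare 3′ UTRs with each other. Exonic tags were then read by exon number and 3′ UTR length of the same genes. Of 459 genes with 15 or more exons and under 500 nt of 3′ UTR, 207 were higher in Alyref and 11 in Chtop (median -0.82). Of 221 genes with 1 to 3 exons and 2 kb or more, 0 and 122 were (median 1.04). The median did not change evenly with 3′ UTR length. At 1 to 3 exons it was 0.10 below 500 nt and 0.97, 0.95 and 1.04 in the longer classes, and at 4 to 7 exons it was -0.60, 0.17, 0.48 and 0.49.

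Scaled to 3′ UTR totals, tags within the 3′ UTR itself differed little between genes. Of 1932 genes tested, 20 were higher in Chtop (1.04%) and 67 in Alyref (3.47%), with 62 and 119 when both replicate 1 libraries were left out. The Chtop count was 3, 3 and 5 and the Alyref count 27, 23 and 27 without Alyref replicate 2, Alyref replicate 3 and Chtop replicate 3. In the 1354 genes tested in both regions, the CDS gave 293 and 212 calls and the 3′ UTR 17 and 53. The median absolute log2 difference was 0.61 in the CDS and 0.36 in the 3′ UTR, at similar median tags (105.5 and 100) and standard errors (0.34 and 0.39). Introns differed still less. Of 3199 genes tested, 11 were higher in Chtop (0.344%) and 0 in Alyref (0%) in edgeR's test, although 277 had an unadjusted p under 0.05. The Chtop count was 0 without Alyref replicate 2 or 3, 5 without Chtop replicate 3, 41 without Alyref replicate 1, 48 without Chtop replicate 1 and 65 without Chtop replicate 2. Over the whole gene, introns included, 833 of 8774 genes were higher in Chtop (9.49%) and 611 in Alyref (6.96%). These counts fell to 109 and 71 without Alyref replicate 2, 132 and 98 without Alyref replicate 3, 366 and 244 without Chtop replicate 3, and 121 and 64 with DESeq2. Of the exonic calls among genes tested both ways, 637 and 443 were also called over the whole gene in the same direction and 0 in the opposite one.

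Within a gene, the balance of 3′ UTR to CDS tags stood towards the 3′ UTR in Chtop. Of 5116 genes with at least 50 tags in the 2 regions, 1493 had a higher balance in Chtop (29.2%) and 17 in Alyref (0.332%), and the estimate was positive in 4317. Without Alyref replicate 2, Chtop replicate 2 and Chtop replicate 3 the Chtop count was 728, 911 and 752 and the Alyref count 6, 9 and 4, and without Alyref replicate 3 the latter was 9. The median log2 difference of the balance was 1.22. MARCHF6, a ubiquitin ligase of the endoplasmic reticulum, had 42.5%, 28.6% and 30.1% of these tags in its 3′ UTR in Alyref and 60%, 68.4% and 67.9% in Chtop, a log2 difference of 2.26 ± 0.21 (adjusted p = 8.31e-23). GGA2, an adaptor of Golgi transport, had 32.6% in Alyref and 85.5% in Chtop over the pooled libraries (3.58 ± 0.39, adjusted p = 4.59e-17). PAXBP1 and the cyclin gene CCNL2 went from 29.0% and 22.8% to 65.4% and 61.7%.

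The 5 genes of lowest p with the opposite balance were mixed in structure. IRS4, an insulin receptor substrate with 2 exons, had 47.0%, 46.5% and 48.3% of its tags in the 3′ UTR in Alyref and 39.4%, 39.7% and 39.0% in Chtop (log2 difference -0.47 ± 0.12, adjusted p = 0.00141), on 840 Alyref and 2723 Chtop CDS tags. SRSF2, an SR protein of splicing with 3 exons, went from 62.8% to 41.7%. SUGP2, a protein with splicing-factor domains, went from 21.2% to 10.6%, MAT2A, which makes S-adenosylmethionine, from 24.9% to 11.2%, and ZNF587, a 3-exon zinc finger gene, from 86.2% to 71.4%. MAT2A and SUGP2 have 9 and 11 exons, with longest middle exons of 219 and 1608 nt. Across genes, the balance had a rho of -0.44 with mean middle exon length and of -0.07 with 3′ UTR length.

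Gene groups were then read against the 12.6% and 14.4% of all tested genes that were higher in Chtop and in Alyref, and a median of 0.00. Housekeeping groups stood on the Alyref side. Of 59 cytosolic ribosomal protein genes tested (79 listed), 46 were higher in Alyref and 0 in Chtop, with a median log2 difference of -1.50. RPS4X, a protein of the small subunit, had 320, 390 and 402 CPM in Alyref and 47.7, 117 and 71.6 CPM in Chtop (log2 difference -2.05 ± 0.27, adjusted p = 3.77e-07). RPS24 and RPS16 gave -1.50 and -1.43. These genes have processed pseudogenes, so their counts depend on unique mapping. Their summed level, scaled to the exonic total without TMM, was 6080 to 7033 CPM in Alyref and 1689 to 3523 in Chtop, and the Control stood at 6402 to 10049. The median member has 6 exons and a 3′ UTR of 139 nt.

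Other groups of energy and protein metabolism had the same sign. Of 22 genes of the respiratory chain and ATP synthase tested (79 listed), 13 were higher in Alyref and 0 in Chtop (median -1.42), among them UQCRC2 of complex III at -1.34 ± 0.30. NDUFA10 of complex I and ATP5F1B of the ATP synthase, at -0.60 and -0.58, did not pass. Of 22 proteasome subunits (39 listed) 9 were higher in Alyref and 0 in Chtop (median -1.11), with PSMD11 of the regulatory particle at -1.77 ± 0.33, while PSMA1 at -0.71 and PSMD1 at -0.62 did not pass. For the mitochondrial ribosome the counts were 6 and 1 of 19 tested (78 listed, median -0.80). The one in Chtop was MRPS25 at 1.22 ± 0.25, whose 3′ UTR is 3932 nt, and MRPS30 and MRPS16 stood at 0.54 and -0.25 without passing. Aminoacyl-tRNA synthetases counted 11 and 0 of 19 tested (20 listed, median -1.05). IARS1, the isoleucine enzyme, had 1398, 1405 and 1430 CPM in Alyref and 715, 685 and 674 CPM in Chtop (-1.05 ± 0.19, adjusted p = 5.44e-05). LARS1 and AARS1, at -0.38 and -0.44, did not pass.

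Translation initiation factors counted 16 and 0 of 38 tested (56 listed, median -1.0005), with EIF4A2, an RNA helicase of cap recognition, at -1.05 ± 0.21 and EIF2S3 and EIF4G3, which did not pass, at -0.40 and -0.21. Glycolytic enzymes counted 7 and 0 of 14 tested (17 listed, median -0.63), with ENO1 at -1.50 ± 0.22, PKM at -0.54 and GPI, which did not pass, at -0.17. The summed level of the glycolytic genes without TMM was 2628 to 2948 CPM in Alyref and 1646 to 2190 in Chtop. The Control stood above both, at 3706 to 4515 CPM on 85 tags. Heat-shock proteins and the chaperonin counted 10 and 0 of 18 tested (23 listed, median -0.82), with the endoplasmic reticulum chaperone HSP90B1 at -0.72 ± 0.22 and the mitochondrial HSPA9 at -1.52. HSP90AA1 at -0.53 did not pass. DNA replication genes counted 14 and 0 of 26 tested (30 listed, median -0.78), with the helicase subunits MCM7 at -0.72 ± 0.21 and MCM3 at -0.61 ± 0.21 and the polymerase POLE, which did not pass, at -0.35. COPI and COPII coat genes counted 4 and 0 of 16 (18 listed, median -0.71), nucleoporins 12 and 1 of 26 (28 listed, median -0.50) and DEAD and DEAH box helicases 11 and 1 of 42 (54 listed, median -0.49). COPA of the COPI coat stood at -1.35 ± 0.25 and the inner-ring nucleoporin NUP155 at -0.85 ± 0.20. The members with most tags that did not pass stood at -0.55 (SEC24C), -0.63 (COPB1), -0.39 (NUP205), 0.43 (NUP153), 0.16 (DDX17) and -0.11 (DDX5). For initiation factors, heat-shock proteins and DNA replication genes the summed Control range (5068 to 7757, 3032 to 4147 and 3778 to 7075 CPM) spanned that of Alyref. For the DEAD and DEAH box helicases it lay below, at 5994 to 11455.5 against 11646 to 13267 CPM.

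Among the lists, numbered zinc finger genes had the most members called in Chtop. Of 239 numbered zinc finger genes tested (508 listed), 81 were higher in Chtop and 4 in Alyref, with a median of 0.66. In CDS tags 81 of 106 tested were higher in Chtop and 0 in Alyref (median 1.39). ZNF711, an X-linked transcription factor, had 4252, 3339 and 3540 CPM in Alyref and 8199, 5537 and 7806 CPM in Chtop (0.95 ± 0.17, adjusted p = 3.89e-05). ZNF460, a 3-exon gene of chromosome 19, had 553, 400 and 368 CPM in Alyref and 810, 1216 and 1634 CPM in Chtop (1.69 ± 0.21, adjusted p = 2.44e-07). ZNF529 gave 0.66 ± 0.20. Members share sequence, so counts of single genes depend on unique mapping. The summed level of the group was 23855 to 26152 CPM in Alyref, 36513 to 42704 in Chtop and 23867 to 29313 in the Control.

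Of 7 intronless or nearly intronless regulatory genes tested (20 listed), 4 were higher in Chtop and 0 in Alyref, with a median of 1.04. None of the 7 passed with DESeq2. The summed level of the group without TMM was 653 to 709 CPM in Alyref and 1143 to 1547 in Chtop. The Control stood at 1011 to 1587 CPM on 26 tags, a range that overlaps that of Chtop and lies above Alyref. JUN, an immediate-early transcription factor, had 58.2, 163 and 201 CPM in Alyref and 286, 374 and 350 CPM in Chtop (1.063 ± 0.24, adjusted p = 0.00112). SOX4 and IER2 gave 1.04 ± 0.24 and 1.31 ± 0.37. Replication-dependent histone genes, also without introns but with very short mRNAs, counted 0 in Chtop and 1 in Alyref of 8 tested (66 listed), with a median of -0.82. H1-2, H4C8 and H3C2, at -0.17, -0.93 and -0.77, did not pass. Histone lysine methylases and demethylases counted 2 in Chtop and 0 in Alyref of 22 tested (28 listed), a lower share in Chtop than the 12.6% of all tested genes. Both were methylase genes, KMT2A at 0.88 ± 0.19, with a middle exon of 4249 nt, and KMT2D at 0.65 ± 0.18, with one of 2790 nt. KMT2C at 0.48 did not pass. The median of that group was -0.19, and the median of its longest middle exons was 558 nt.

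The remaining groups had calls on both sides or few calls. Solute carriers counted 13 in Chtop and 9 in Alyref of 96 tested (337 listed, median 0.11), with the mitochondrial carriers SLC25A37 at 1.603 ± 0.20 and SLC25A36 at 1.13 and, not passing, SLC38A2 at 0.23. Chromatin remodelling genes counted 3 and 2 of 24 (27 listed, median 0.10), with CHD9 at 0.88 ± 0.20 and, not passing, SRCAP and EP400 at 0.31 and 0.54. The counts were 1 and 4 of 19 for the DNA damage response (20 listed, median -0.14) and 0 and 1 of 15 for sterol synthesis and uptake (20 listed, median -0.15). FANCA and FANCD2 of the Fanconi pathway stood at -1.26 ± 0.19 and -0.70, and PRKDC, HMGCS1, LSS and SREBF2, none of which passed, at -0.14, 0.45, -0.25 and 0.59. SR proteins counted 0 and 3 of 11 (12 listed, median 0.08), hnRNP proteins 2 and 5 of 22 (29 listed, median -0.31), cleavage and polyadenylation factors 1 and 4 of 17 (19 listed, median -0.41), and the exon junction complex with nonsense-mediated decay 0 and 2 of 13 (19 listed, median -0.05). HNRNPA2B1 and HNRNPH1 stood at -0.91 ± 0.20 and -0.74 and CPSF1, a cleavage factor subunit, at -1.20 ± 0.24. Members with most tags that did not pass ranged from -0.29 in SMG5 to 0.42 in SRSF6 and SRSF2. With DESeq2 fewer members of these lists passed, for example 8 ribosomal protein genes in Alyref and 11 zinc finger genes in Chtop. The medians moved by little, to -1.55 and 0.62.

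**Figure D5:**
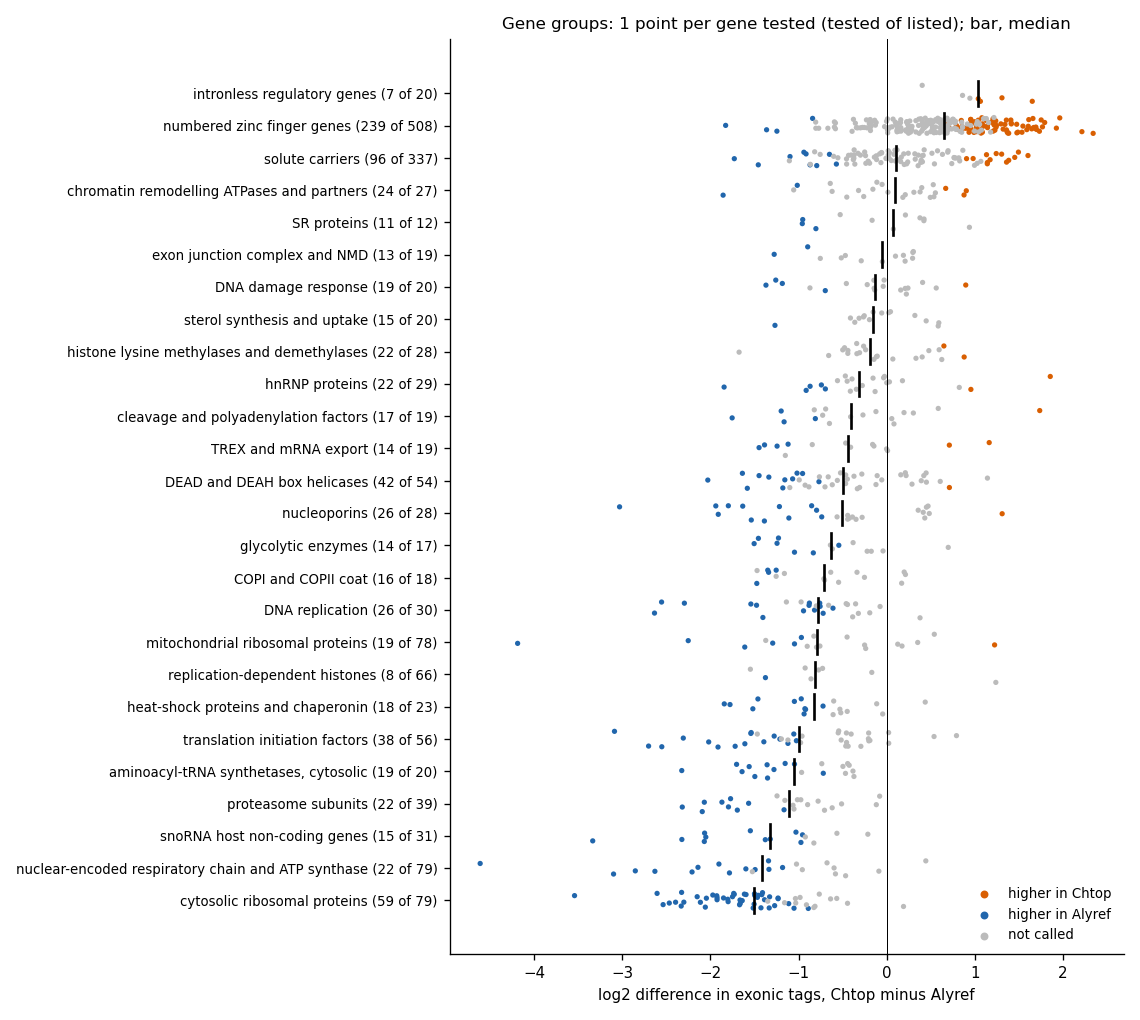
log2 difference in exonic tags, Chtop minus Alyref (x axis), of each gene tested in 26 groups, with the median as a bar, blue for genes higher in Alyref, orange for genes higher in Chtop and grey for the rest. The medians run from -1.50 in cytosolic ribosomal proteins to 1.04 in intronless regulatory genes.

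TREX and mRNA export genes counted 2 in Chtop and 4 in Alyref of 14 tested (19 listed, median -0.44). The mRNA of CHTOP itself had 116, 191 and 231 CPM in Alyref and 286, 447 and 489 CPM in Chtop, a log2 difference of 1.16 ± 0.23 (adjusted p = 0.000184) with no overlap. Its CDS had 25 Alyref and 49 Chtop tags and its 3′ UTR 42 and 91, while introns had 21 and 22. Tested within its own region, the CDS gave 1.44 (adjusted p = 0.00378) and the 3′ UTR 0.29 (adjusted p = 0.722). Tags from the inducible copy cannot be told apart from those of the endogenous gene in the CDS. ALYREF mRNA had few tags, 0, 18 and 11 in Alyref and 0, 2 and 13 in Chtop, and did not pass the test (-0.84 ± 0.56, adjusted p = 0.266). DDX39B, the helicase of TREX, stood at -0.47 ± 0.18 (adjusted p = 0.0527), THOC2, the scaffold of the THO core, at 0.01 ± 0.19, and NCBP3, a cap-binding protein with a 3′ UTR of 10889 nt, at 0.71 ± 0.21 (adjusted p = 0.00968).

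Among 277 genes that do not encode proteins, 47 were higher in Chtop and 63 in Alyref, beside 12.6% and 14.4% of all tested genes. Their median was 73 exonic tags, against 102 in protein-coding genes. Host genes of small nucleolar RNAs stood with Alyref, 11 of 15 tested (31 listed) and 0 in Chtop, with a median of -1.32 and a summed Control level of 2358 to 9307 CPM against 2344 to 3170 in Alyref. ZFAS1, a host gene with middle exons of 84.3 nt on average, had 262, 188 and 244 CPM in Alyref and 143, 14.6 and 16.8 CPM in Chtop (-3.34 ± 0.43, adjusted p = 2.92e-07). Its 3 tags in Chtop replicate 1 make up the highest Chtop level, and it did not pass the threshold with DESeq2. SNHG17, SNHG1 and GAS5 gave -1.38, -1.32 and -1.55. TRNAI6, annotated as a miRNA and named as a tRNA, had 13, 28 and 30 tags in Alyref and 0, 2 and 0 in Chtop, and RNY4P1, a Y RNA copy, 7, 20 and 29 against 0, 0 and 2. Both belong to multi-copy families and are uncertain. ENSG00000253190, a lncRNA of 4 exons, had 63 Alyref and 5 Chtop tags.

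Towards Chtop, the non-coding genes of lowest p were ENSG00000260267, a single-exon lncRNA, TP73-AS1, LAMTOR5-AS1 and ZNF731P. ENSG00000260267 had 58.2, 136 and 146 CPM in Alyref and 334, 363 and 543 CPM in Chtop (1.72 ± 0.25). TP73-AS1, annotated as a transcribed pseudogene, had 146, 143 and 167 CPM in Alyref and 429, 410 and 493 CPM in Chtop (1.55 ± 0.23). LAMTOR5-AS1 and ZNF731P gave 1.96 ± 0.33 and 2.01 ± 0.36. Tags were counted by strand, so that antisense partners were kept apart. LAMTOR5-AS1, however, starts at base 110889738 of chromosome 1, just past the RBM15 end at 110889303 on the same strand. Whether its tags come from RBM15 transcripts was not tested.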

How the data were processed

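The authors mapped reads with STAR 2.4.2a to hg19 after removing phiX with Bowtie 1.1.2 and collapsed duplicates by random barcodes with UMI-tools 0.5.3, per the paper's methods and the submitters' notes. The deposited values are whole-number counts of tags per crosslinked base. Lane runs of a library had been merged. Tags outside the mitochondrial chromosome were assigned by strand to genes of GENCODE 44 mapped to GRCh37 (63793 genes, 19515 protein-coding, 656 readthrough and PAR genes left out), and tags in several genes (3.48% to 4.02%) were dropped. Exon and UTR lengths are those of the canonical transcript.

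Counts of the 6 libraries were tested with edgeR 4.0.16 (TMM, filterByExpr, quasi-likelihood F-test) in R 4.3.3. Exonic, whole-gene, CDS, 3′ UTR, intron and middle-exon counts were each scaled to their own totals. The 3′ UTR to CDS balance was an interaction term in one fit over both regions. DESeq2 1.42.0 and the other alternatives are in the closing section. Per-library measures used exact permutation tests (scipy 1.17.1). The steps were tested on simulated data. A count of 0 allows up to 3 tags.

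Named genes were the 12 of largest difference per direction among called protein-coding genes with at least 100 exonic tags and no overlap, the 4 non-coding genes per direction, 5 exons and 5 balances of lowest p, ALYREF, CHTOP, and the 3 members of each list with most tags. Members and lists were chosen with earlier results of these data known. One gene named by this rule is not reported here.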

Additional observations from a re-analysis of the deposited data

How the results depend on the processing

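Counts are given as higher in Chtop and higher in Alyref. DESeq2 called 114 and 171 genes from exonic and 121 and 64 from whole-gene tags. Without a filter on low counts the counts were 501 and 931 (exonic), 550 and 346 (whole gene), 6 and 9 (3′ UTR), 0 and 0 (introns) and 0 and 0 (middle exons), with more features tested. Fitting all 12 libraries, with fewer genes tested, gave 189 and 230 (exonic) and 353 and 176 (whole gene). Leaving out both replicate 1 libraries, chosen after seeing the data, gave 62 and 119 in 3′ UTRs and 32 and 1 in introns. Leaving out 1 library at a time gave 371 to 1125 and 525 to 1129 (exonic), 109 to 934 and 71 to 702 (whole gene), 454 to 942 and 327 to 830 (CDS), 3 to 38 and 23 to 90 (3′ UTR), 0 to 65 and 0 to 8 (introns), 8 to 197 and 62 to 186 (middle exons) and 728 to 1559 and 4 to 19 (balance). The lowest whole-gene counts came without Alyref replicate 2, which is one of the deep libraries. With exons of all isoforms merged, rho was -0.20 for exon number, 0.0884 for mean and 0.0163 for longest middle exon, 0.23 for 3′ UTR and 0.11 for spliced length, and in genes of at least 100 tags it was 0.0491 for CDS length. The cause was not tested for any of these.

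Libraries of the same replicate number deviated together only weakly (correlations of deviations 0.0569, 0.0836 and 0.0262). In both groups replicate 2 was run on other HiSeq lanes than replicates 1 and 3. With the replicate number as a block, the replicate block fit gave 908 and 1012 exonic calls, 36 and 75 in 3′ UTRs and 36 and 2 in introns, and Chtop replicate 3 was the only library of the 6 that did not correlate best with its own number. Among the genes named from the exonic fit (lists aside), none reversed in the alternatives run, the calls of MGAT1 and ZFAS1 were lost with DESeq2, and ALYREF gained one without Chtop replicate 3. Arms reduced to 2 libraries share one estimate of the spread. The shallow replicate 1 libraries hold single tags for many genes, and 3 libraries per group cannot give an exact p below 0.1.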
